A study of Mus musculus with 17 samples.

Results

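The RNA of bone-forming cells was followed in mouse cochleae after noise exposure (NE). The set holds 10 genes, chosen by name from the 35285 genes of the expression table, that are used as markers of osteoblasts and osteocytes: Runx2, Sp7, Alpl, Bglap, Bglap2, Ibsp, Spp1, Dmp1, Phex and Sost. All 10 were found in the table, and all 10 reached at least 1 FPKM (fragments per kilobase of exon, scaled to the size of the library) in at least 3 of the 17 libraries. The control group held 3 libraries of mice that were given saline and were not exposed. The NE group held 7 libraries of mice exposed for 2 h to noise of 8 to 16 kHz at 100 dB SPL, and the brimonidine group held 7 libraries of mice that had the same exposure and also 3 intraperitoneal injections of brimonidine, an agonist of α2-adrenergic receptors, at 1 mg/kg. The injections were given on the day before, 0.5 h before the exposure and on the day after it. The mice were wild-type C57BL/6J males of 8 weeks, and cochleae were taken on day 2 after exposure. The authors state that this strain carries a Cdh23 mutation and loses hearing early and progressively. Each library came from a mouse of its own, so the spread between libraries includes that between animals and between dissections.

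The cochlea is coiled inside the temporal bone, and a dissected cochlea can carry its bony capsule, the bony core around the nerve and the marrow that lies in them. Osteoblasts lay down the collagen matrix of bone and help it mineralize. Some of them are then buried in it and become osteocytes, which control further bone formation and the handling of phosphate. The transcription factor RUNX2 starts this program and SP7 (osterix) acts downstream of it. Alkaline phosphatase, osteocalcin, bone sialoprotein and osteopontin belong to the matrix-forming stage, and DMP1, PHEX and sclerostin are known from osteocytes.

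The osteocalcin genes have to be read with care, because Bglap and Bglap2 are near-copies of each other. Bglap lies at chr3:88383501-88384464 and Bglap2 at chr3:88377736-88378699 (mm10), both on the minus strand and 4.80 kb apart, and a further copy, Bglap3, lies 4.99 kb further on. Each of the first pair has 4 exons and codes for osteocalcin, the small calcium-binding protein that osteoblasts secrete into bone. Their coding sequences, from the GENCODE M21 transcripts (GRCm38), are shown because they limit what the reads can separate; the capitals mark the 4 of 288 bases that differ.
Bglap: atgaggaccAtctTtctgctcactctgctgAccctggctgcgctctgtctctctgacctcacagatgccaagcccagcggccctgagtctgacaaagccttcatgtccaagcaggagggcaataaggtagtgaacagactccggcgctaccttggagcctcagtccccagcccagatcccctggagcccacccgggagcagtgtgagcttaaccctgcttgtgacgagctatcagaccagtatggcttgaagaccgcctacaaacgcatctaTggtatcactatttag
Bglap2: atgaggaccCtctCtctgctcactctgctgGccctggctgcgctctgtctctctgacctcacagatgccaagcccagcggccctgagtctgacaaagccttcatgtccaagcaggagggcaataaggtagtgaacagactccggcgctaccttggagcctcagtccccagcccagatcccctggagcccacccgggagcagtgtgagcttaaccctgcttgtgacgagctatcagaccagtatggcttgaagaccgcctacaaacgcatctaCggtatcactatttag
The coding sequences shared 98.6% of their bases and an identical run of 241 bases, and Bglap3 differed from them at 13 and 9 bases. Over the whole transcripts of Bglap and Bglap2, of 440 and 471 bases, the shared part was lower, at 92.1%. Bglap2 had 0.817 to 0.927 times the fragments of Bglap in every library, and the levels of the pair correlated with r = 0.992 over the 14 exposed libraries. How the counting step divided reads between the copies was not given in the sources used here, so Bglap and Bglap2 are described as a single osteocalcin signal counted in 2 places, with the order of their levels uncertain.

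Between 14457733 and 18288854 fragments were recovered per library from the FPKM values, and each of the 10 genes had from 524 (Sp7, lowest library) to 23525 (Spp1, highest library) of them. The counting error alone was therefore at most 4.37% for any gene in any library. The tissue was labelled as cochlear cells and the cell type as interstitial cells. The summed FPKM of 6 hair cell genes was 9.04 to 17.4 and that of 7 genes of the lateral wall and ligament was 508 to 1239, while that of 8 neutrophil genes of marrow was 9385 to 63935. The summed FPKM of the 10 bone genes lay between 893 and 1883, so transcripts of bone and marrow were measured in every library.

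Control 2 stood apart from the other 16 libraries in most of the 10 bone genes and in other tissues, and fold changes against the controls were also computed without it. Control 2 was the highest of the 3 controls for 10 of 10 bone genes, which held for 51.2% of the 16416 genes with at least 1 FPKM in 3 libraries. It was the highest of all 17 libraries for 7 of the 10, against 39.4% of all genes. Its level was 1.30 (Runx2) to 3.30 (Sost) times the mean of controls 1 and 3, with a median of 2.01 over the 10 genes and 1.09 over all genes, and it was at least 1.5 times that mean for 8 of 10 bone genes and 27.1% of all genes. Neutrophil genes of marrow went the other way, with a sum of 9385 in control 2 against 42883 and 45103 in controls 1 and 3. So did the sums of 2 further bone lists described below. Osteoblast transcription factors summed to 170 against 196 and 187, and further osteocyte genes to 99.3 against 132 and 144. Their highest genes, Atf4 and Cbfb, and Capg and Cd44, were lowest in control 2, while lower ones such as Dlx5 and Fgf23 were highest there. The osteoclast sum was 517 against 648 and 613, but 61.5% to 76.1% of it in the exposed libraries was Mmp9, a protease that neutrophils also make. Without Mmp9, left out after the values were seen, it was 335 against 176 and 210, and 5 of 9 detected osteoclast genes were highest in control 2. The erythroid sum was 9615 against 2594 and 1561, the chondrocyte sum 135 against 46.0 and 57.0, and the lateral wall sum 1239 against 508 and 698. A second feature separated all 3 controls from the exposed libraries: 12 genes of cerebellum and hindbrain neurons summed to 718 in control 2 and to 266 and 280 in the others, against 30.5 to 45.4 after NE and 31.1 to 104 after NE with brimonidine. The part of these tissues in the results below was not tested.

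**Figure D1:**
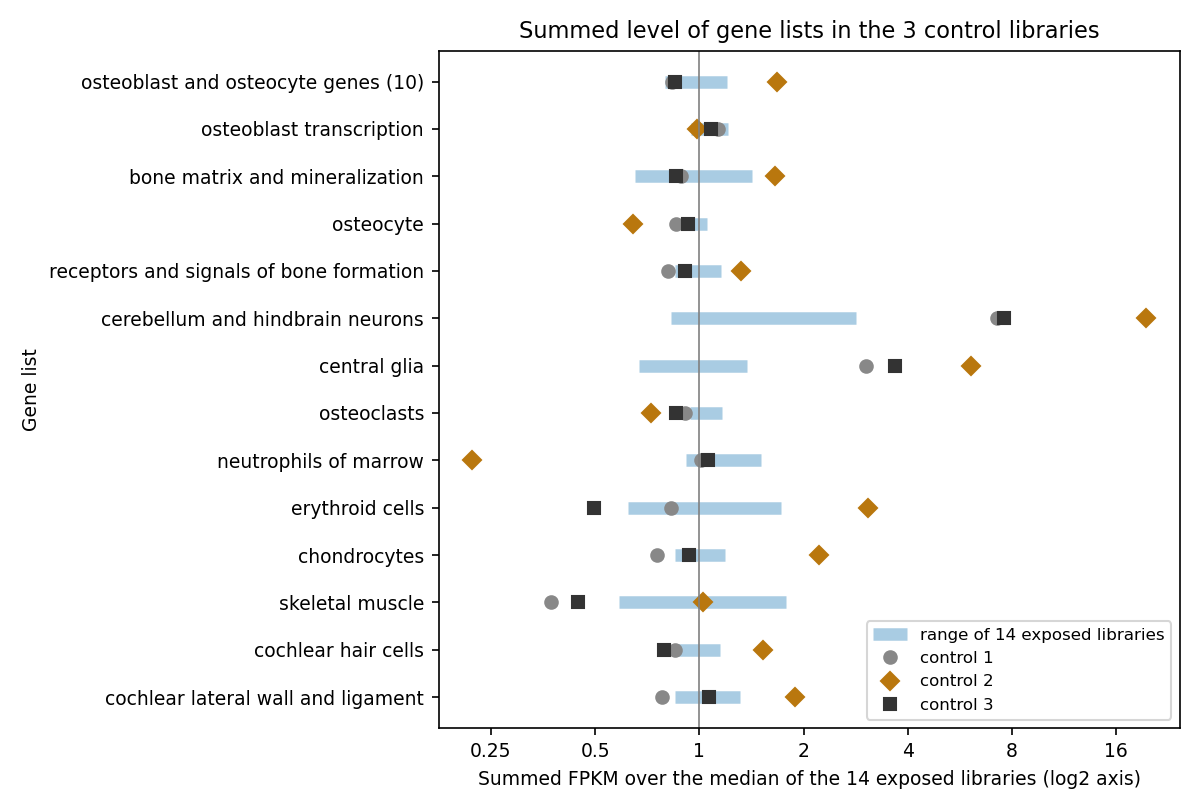
Summed FPKM of each gene list in the 3 control libraries, divided by the median of the 14 exposed libraries (log2 axis); light bars span the exposed libraries. Control 2 lay at 1.68 times that median for the 10 bone genes and at 0.221 times for neutrophil genes, and all 3 controls lay far to the right for the genes of cerebellum and hindbrain.

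Expression of the 10 genes was ordered in much the same way in every library. Spp1 was the highest and Runx2 the lowest of the 10 in 17 of 17 libraries, with mean levels of 614.5 and 7.43 FPKM. Ibsp averaged 158.5 FPKM, Bglap2 122, Bglap 107, Dmp1 45.2, Sost 30.3, Alpl 26.9, Sp7 14.2 and Phex 11.7, and among the 16416 genes these means reached from the 57.9th percentile (Runx2) to the 99.7th (Spp1). Neighbours in the order were not all apart: Alpl and Sost exchanged places between libraries, Sost was above Dmp1 in control 2, and places were also exchanged by Phex and Sp7 and the trio of Ibsp, Bglap2 and Bglap.

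Of the transcription factors, Runx2 varied little and Sp7 did not: their coefficients of variation were 7.21% and 28.4% in the NE group and 8.79% and 20.3% in the brimonidine group. Runx2, the master regulator of osteoblast commitment, lies at chr17:44495987-44814797. It was at 5.93, 7.75 and 5.96 FPKM in controls 1, 2 and 3, at 6.49, 7.40 and 8.05 (lowest, median and highest) among NE libraries and at 6.93, 7.89 and 8.64 among brimonidine libraries. All 14 exposed libraries were above controls 1 and 3, and 8 of them were below control 2. Sp7, which acts after Runx2, lies at chr15:102356609-102366325 and had 13.3, 21.2 and 11.8 FPKM in the controls, with medians of 12.7 (NE) and 14.1 (brimonidine). NE 1, at 22.4 FPKM, was the only exposed library above control 2 for Sp7.

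Alpl, at chr4:137741733-137796384, encodes the tissue-nonspecific alkaline phosphatase that releases phosphate for mineral. Its controls were at 22.8, 46.0 and 20.7 FPKM, and the exposed groups had nearly the same medians, 25.9 (NE) and 25.6 (brimonidine), with ranges of 20.3 to 32.0 and 21.8 to 32.9. Every exposed library was below control 2.

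Osteocalcin varied most among the matrix genes. Bglap had 112, 236 and 59.9 FPKM in controls 1, 2 and 3. In the NE group its lowest, median and highest levels were 70.8, 108 and 202 FPKM, and in the brimonidine group 59.9, 84.4 and 111. The exposed groups overlapped, the lowest, median and highest brimonidine values each being below those of NE, and controls 1 and 3 differed from each other by 1.87 times. Bglap2 had 127, 269 and 71.4 FPKM in the controls, and medians of 132 (NE) and 99.8 (brimonidine).

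Ibsp and Spp1 encode acidic phosphoproteins that bind mineral and cells. With Dmp1 they lie in a cluster of 238 kb on chromosome 5, in the order Dmp1 (chr5:104202613-104214102), Ibsp (chr5:104299171-104311469), Mepe and Spp1 (chr5:104435118-104441050). Ibsp was at 112, 227 and 126 FPKM in the controls, at a median of 152 in the NE group (124 to 193) and at 170 in the brimonidine group (108 to 189). Spp1, or osteopontin, is also made by macrophages and other cells, so it is the least specific of the set. It was at 479, 940 and 595 FPKM in the controls, at 494, 550 and 654 (lowest, median and highest) among NE libraries and at 545, 631 and 734 among brimonidine libraries. The exposed groups overlapped for both genes, and control 2 was above all 14 exposed libraries for each.

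The osteocyte genes differed in how far control 2 was from the rest. Dmp1, a matrix protein that osteocytes use in mineralization and phosphate control, had 35.1, 50.7 and 36.5 FPKM in the controls, 32.0, 39.0 and 56.4 (lowest, median and highest) among NE libraries and 39.0, 45.2 and 64.9 among brimonidine libraries. Of the 14 exposed libraries, 13 were above both control 1 and control 3, and 10 were below control 2. Phex (chrX:157162075-157415312), the endopeptidase that is mutated in X-linked hypophosphatemia, had 9.50, 22.5 and 9.75 FPKM in the controls and medians of 11.3 and 11.1 in the NE and brimonidine groups. Sost (chr11:101962458-101967015) encodes sclerostin, the osteocyte protein that blocks Wnt signals and so restrains bone formation. It was at 19.3, 61.7 and 18.1 FPKM in controls 1, 2 and 3, at 21.1, 28.1 and 41.2 among NE libraries and at 24.0, 29.96 and 41.1 among brimonidine libraries. All 14 exposed libraries lay between controls 1 and 3 on the lower side and control 2 on the upper side.

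**Figure D2:**
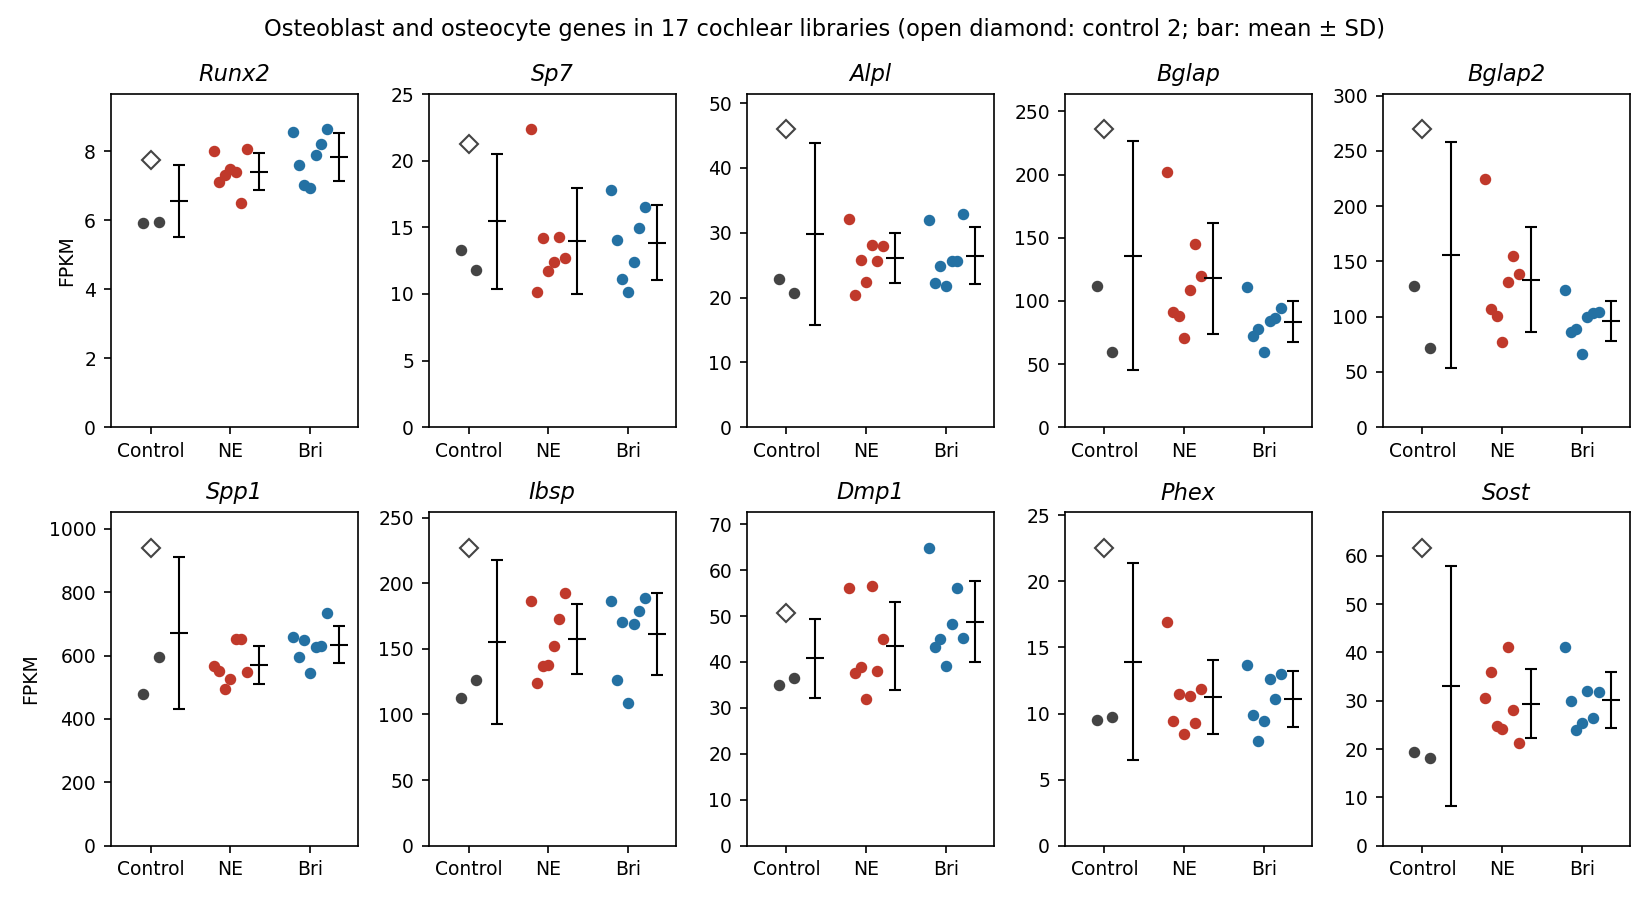
FPKM of the 10 genes in each of the 17 libraries (Bri, brimonidine), with the mean and SD of each group as a bar at its right; the open diamond is control 2. Control 2 was the highest library for 7 of 10 genes, and the 14 exposed libraries were all above the other controls for Runx2 and Sost.

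The first comparison asked whether bone genes differed between noise-exposed and unexposed cochleae. None of the 10 genes passed the test between the NE and control groups (limma, adjusted p under 0.05 and at least a 2-fold change), where 5.76% of 15950 genes passed. No gene of the 10 passed with the adjusted p alone (14.1% of all genes) or had an unadjusted p under 0.05 (32.9% of all genes), and voom on recovered fragments also called 0. The fold changes, on the log2(FPKM + 1) scale as NE minus control, ran from -0.21 ± 0.26 (SE) for Phex to 0.16 ± 0.09 for Runx2, with adjusted p from 0.249 (Runx2) to 0.949 (Sost) by limma. Their median was -0.08, against -0.04 over all genes tested. In bulk tissue, fewer cells of a type and less RNA per cell cannot be told apart, nor can either be told from a larger or smaller piece of bone in the dissection. The NE mean of Runx2 was 7.41 ± 0.53 FPKM (SD, n = 7) against 6.55 ± 1.04 (SD, n = 3) for the controls. That of Bglap was 118 ± 44.1 (n = 7) against 136 ± 90.4 (n = 3), so the control SD alone was larger than the difference.

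Leaving out control 2 turned the direction of 6 genes. All 10 were then higher in the NE group, with a median log2 fold change of 0.26 against -0.01 over all genes, and this held for 10, 10 and 9 genes under the 3 rescalings tried. On the values as deposited none passed the full call (2.38% of 15431 genes did) or the adjusted p alone (6.74%). Runx2 came nearest at 0.27 ± 0.08 (adjusted p = 0.0752, limma), and Sost had the largest value, 0.59 ± 0.21 (adjusted p = 0.142, limma). Runx2 and Sost were also the 2 genes with all NE libraries above both remaining controls, as were 5.49% of all genes. Runx2 passed the adjusted p under some settings. Without control 2 its adjusted p (limma) was 0.0133 with median-ratio rescaling and 0.00865 with quantile normalization (7.12% and 7.67% of all genes passed), and 0.176 after rescaling to equal totals. With all libraries its adjusted p (limma) was 0.0292 after rescaling by the median ratio, 0.0192 after quantile normalization, 0.00148 with array weights and 0.511 after rescaling to equal totals, with log2 fold changes of 0.14 to 0.29. Sost also passed with array weights, which give less weight to libraries that stand apart (0.58 ± 0.19, adjusted p = 0.0330, limma). With these weights 37.4% of all genes passed, against 14.5% and 15.4% after the median ratio and quantile normalization. Without control 2 only 2 control libraries remained, and both carried the genes of cerebellum and hindbrain at more than any NE library. Skeletal muscle genes differed from controls 1 and 3 in the same direction as the bone genes. Their sum over 6 genes was 177 and 213 FPKM in controls 1 and 3 and 487 in control 2, against 347 to 847 after NE, and 6 of 6 passed the adjusted p as higher after NE without control 2 (3 of 6 with it; limma). Other tissues also had positive medians in this comparison without control 2. On the log2 scale these were 0.57 for erythroid, 0.36 for chondrocyte, 0.15 for osteoclast, 0.10 for neutrophil and 0.08 for lateral wall genes. Among these lists only 1 of 9 osteoclast genes passed the adjusted p (limma). Genes of cerebellum and hindbrain (-3.10) and of central glia (-0.77) went the other way. The part of muscle and of these other tissues in the differences of the bone genes was not tested.

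The second comparison asked whether brimonidine altered the picture after noise, in 7 against 7 libraries and without the controls. None of the 10 genes passed the test, and 0% of 15707 genes did by the full call; 1 gene outside the set (0.00637%) passed the adjusted p alone. Osteocalcin was the largest difference of the set. Bglap was at 83.6 ± 16.5 FPKM (SD, n = 7) in the brimonidine group and at 118 ± 44.1 (SD, n = 7) in the NE group. The log2 fold change was -0.44 ± 0.20 (SE), with a 95% interval from -0.85 to -0.02, an unadjusted p of 0.0421 and an adjusted p of 0.857 over all genes (limma), and the exact permutation test, two-sided, gave p = 0.0647. All 7 brimonidine libraries were below the NE mean, but the groups overlapped. Bglap2 gave -0.42 ± 0.19 (adjusted p = 0.865, limma), close to its near-copy. An unadjusted p under 0.05 was found for these 2 of the 10 genes and for 5.77% of all genes, and with a lower level for 2.46%. The 2 genes are a single osteocalcin signal and do not count as 2 separate results beside these shares.

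Spp1 moved the other way, at 634 ± 58.1 FPKM (SD, n = 7) in the brimonidine group and 570 ± 60.6 (n = 7) in the NE group, a log2 difference of 0.16 ± 0.08 (adjusted p = 0.870, limma; exact permutation p = 0.0618). The other genes differed by -0.01 (Phex) to 0.17 (Dmp1) on the log2 scale with adjusted p of at least 0.901 (limma). Their intervals limit what could have been missed: the 95% interval was -0.05 to 0.19 for Runx2, -0.21 to 0.25 for Alpl and -0.32 to 0.33 for Sp7, which all exclude a 2-fold change. The value for Bglap depended on NE 1, the NE library with the highest osteocalcin, and was -0.29 without it.

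The ratio of Bglap to other bone genes in the same library, a measure chosen after these values were seen and given without a test, was lower at the median in the brimonidine group against each of 8 other genes. Bglap over Dmp1 was 1.92 to 3.80 in the NE group (median 2.41) and 1.53 to 2.09 in the brimonidine group (median 1.72), and 6 of 7 brimonidine libraries were below every NE library. That count was highest for Dmp1. It was 4 for each of Sp7, Ibsp, Spp1 and Phex, 3 for Alpl, 2 for Sost and 1 for Runx2. Bglap over Ibsp had medians of 0.713 and 0.499. In the controls Bglap over Dmp1 was 1.64 to 4.65, wider than both exposed groups together.

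The third comparison set brimonidine-treated, noise-exposed mice against the same controls, so its values share those libraries with the first. None of the 10 genes passed (5.73% of 15947 genes did), nor with the adjusted p alone (15.8%). Runx2 was the only gene of the set with an unadjusted p under 0.05, as were 35.6% of all genes. It was at 7.84 ± 0.69 FPKM (SD, n = 7) against 6.55 ± 1.04 (n = 3), which is 0.23 ± 0.10 higher on the log2 scale (adjusted p = 0.117 by limma; exact permutation p = 0.0417, smallest possible 0.00833). Over the 30 exact tests of 10 genes in 3 comparisons the adjusted value for Runx2 was 0.55 (permutation). Bglap and Bglap2 had the most negative values, -0.50 ± 0.33 and -0.51 ± 0.33 (adjusted p = 0.302 and 0.283, limma).

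These values turned on single control libraries. Without control 2, Runx2 (0.34 ± 0.09, adjusted p = 0.0335) and Sost (0.64 ± 0.17, adjusted p = 0.0399) passed the adjusted p alone by limma, as 9.48% of 15535 genes did, though not the full call (3.01%). Sost was then at 30.1 FPKM against 18.7, and 7 of 7 brimonidine libraries were above both controls for Runx2, Sost and Dmp1 (8.32% of all genes). Both passed under each of the 3 rescalings as well, where 7.26%, 9.95% and 12.0% of all genes did. With all libraries Runx2 passed after 2 of them (adjusted p = 0.0189 and 0.0131, limma), as did 17.6% and 19.0% of all genes. The muscle sum was 280 to 714 FPKM in the brimonidine group, above controls 1 and 3, and 3 of its 6 genes also passed the adjusted p as higher without control 2. So did 1 of 6 erythroid genes (Slc4a1), 1 of 5 chondrocyte genes (Comp) and 1 of 7 lateral wall genes (Otos), and the 6 erythroid genes differed by 0.61 to 0.95 on the log2 scale. Their part in the values of Runx2 and Sost was not tested. With array weights and all libraries, Runx2 (0.35, adjusted p = 0.00201), Dmp1 (0.41, adjusted p = 0.0286) and Sost (0.68, adjusted p = 0.00450) passed the adjusted p by limma, as 43.4% of all genes did. Without control 2 the log2 fold change was 0.01 for Bglap and -0.01 for Bglap2. Without control 3, the control with the lowest osteocalcin, Bglap fell by 0.97 (adjusted p = 0.0443, limma) and Bglap2 by 0.96 (adjusted p = 0.0459, limma), where 14.1% of all genes passed the adjusted p. A statement on osteocalcin against the controls therefore depended on which of 3 mice was left in.

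**Figure D3:**
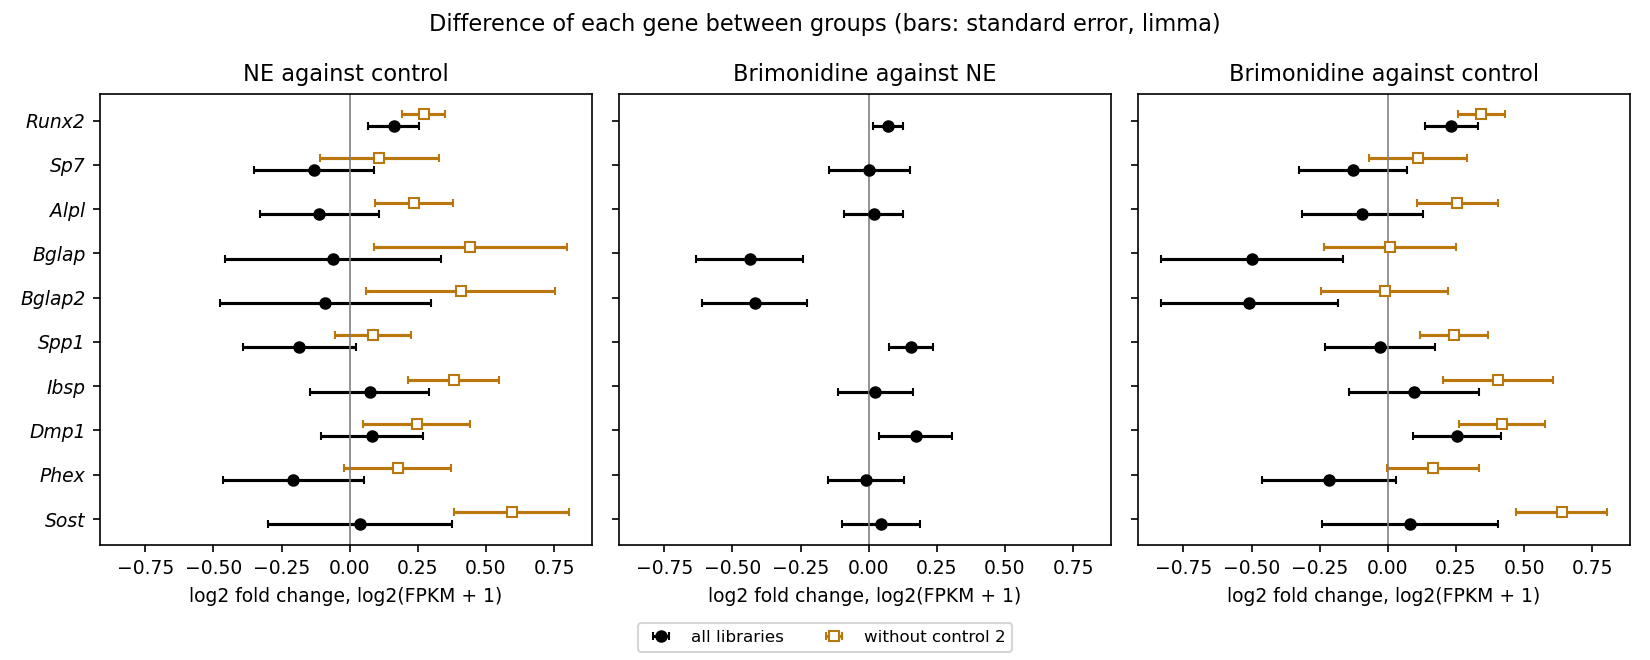
log2 fold change of each gene with its standard error (limma, log2(FPKM + 1) scale) in the 3 comparisons, with all libraries (black) and without control 2 (open squares; not applicable to brimonidine against NE). Without control 2 the values for NE against control were positive for 10 of 10 genes, and Bglap and Bglap2 were the lowest in brimonidine against NE.

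Other genes of bone formation were read from lists. Among 8 transcription factors of osteoblasts, 6 were tested between the NE and control groups and 0 passed the adjusted p. Cbfb, the partner that stabilizes RUNX2 on DNA, averaged 33.6 FPKM in control mice, 40.6 after NE and 42.9 after NE with brimonidine. It differed by 0.28 ± 0.10 on the log2 scale in the first comparison (adjusted p = 0.0984, limma), or 0.12 ± 0.07 without control 2 (adjusted p = 0.354), and by 0.36 ± 0.10 in the last (adjusted p = 0.0350, limma). It was the only 1 of 7 factors tested to pass in that comparison, where 15.8% of all genes passed. Without control 2, Dlx5 (0.64 ± 0.10, adjusted p = 0.00286) and Cbfb (0.20 ± 0.05, adjusted p = 0.0452) were higher and Atf4 was lower (-0.32 ± 0.08, adjusted p = 0.0303) in the brimonidine group (limma), which is 3 of 7 factors beside 9.48% of all genes. With all libraries, brimonidine against control gave 0.32 ± 0.19 for Dlx5 (adjusted p = 0.242) and -0.22 ± 0.10 for Atf4 (adjusted p = 0.133) by limma. Dlx5 is a homeobox factor of osteoblasts and Atf4 a stress-response factor found in most cells.

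Of 15 genes of matrix and mineralization, 14 were tested between NE and control, and Slc20a1, a sodium-phosphate carrier of many cell types, was the only gene to pass the adjusted p, at 10.1 against 14.7 FPKM (-0.48 ± 0.12, adjusted p = 0.0243, limma). Of all genes, 14.1% passed there. In brimonidine against control 2 of 13 passed, Slc20a1 (-0.38 ± 0.11, adjusted p = 0.0369) and its relative Slc20a2 (-0.59 ± 0.15, adjusted p = 0.0247), by limma, a share near the 15.8% of all genes. Without control 2, 0 of these lists' matrix genes passed in either comparison. Slc20a1 kept its direction in NE against control, at -0.31 ± 0.09 (adjusted p = 0.0770, limma). The type I collagen genes, the bulk of bone matrix, averaged 320 (Col1a1) and 144 FPKM (Col1a2) in control mice, 358 and 162 after NE and 277 and 131 with brimonidine. Without control 2 the control means were 219 and 101 FPKM, and the log2 difference of NE against control went from 0.26 to 0.69 for Col1a1 and from 0.26 to 0.66 for Col1a2 (adjusted p = 0.134 and 0.128, limma). Their differences in brimonidine against NE were -0.42 ± 0.23 and -0.35 ± 0.21 on the log2 scale (adjusted p = 0.872 and 0.878, limma), beside -0.44 for Bglap.

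Among 7 further osteocyte genes, 5 were tested and 0 passed in any of the 3 comparisons; Capg, Cd44 and Pdpn had the highest levels, and the first pair is also expressed in leukocytes. Fgf23, the phosphate hormone of osteocytes, averaged 6.65, 6.34 and 5.94 FPKM in the control, NE and brimonidine groups. All 10 receptors and signals of bone formation were tested, among them the receptors for parathyroid hormone (Pth1r) and vitamin D (Vdr), and 0 passed in any comparison. Median log2 fold changes of these lists ran from -0.16 to 0.21 over the 3 comparisons and, without control 2, from 0.08 to 0.20 in both comparisons with controls. In brimonidine against NE, 0 genes of the 4 lists passed.

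Levels of the 10 genes were mostly positively correlated among exposed mice. Over the 14 exposed libraries, Pearson's r of log2(FPKM + 1) was positive for 45 of 45 pairs, with a median of 0.57 and a range from 0.05 (Ibsp and Sost) to 0.99 (the osteocalcin copies). Of these pairs, 19 had an adjusted p under 0.05 (permutation test, 100000 resamples, adjusted over the 45 pairs), and 14 of the 19 also by Spearman's rho. Ibsp and Alpl gave r = 0.814 and rho = 0.785 (permutation p = 0.00038 and 0.00104, adjusted 0.00756 and 0.0219), and r = 0.740 without the 2 libraries farthest from the median. Sp7 and Phex gave r = 0.799 and rho = 0.684 (permutation p = 0.00069 and 0.00878, adjusted 0.00756 and 0.0435), and r = 0.558 without those 2. Within the groups, 39 pairs were positive with a median r of 0.53 among NE libraries, where Runx2 and Spp1 had r = -0.41, and 45 with a median of 0.75 among brimonidine libraries. With osteocalcin counted once, 36 of 36 pairs were positive over the 14 libraries and 30 of 36 among NE libraries, with median r of 0.56 and 0.48. Among all pairs of the 6861 genes with mean levels in the range of the 10, 50.7% were positive, with a median r of 0.01. Leaving out the 2 farthest libraries of each pair gave 43 positive pairs and a median r of 0.47.

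Alpl was the most typical gene, with a median r of 0.66 with the other 9, and Spp1 (0.31) and Sost (0.27) were the least tied to the rest. Runx2 had r = 0.708 with Phex and r = 0.658 with Alpl. With Bglap it had r = 0.169 over the 14 libraries, but 0.877 among brimonidine libraries, 0.159 among NE libraries and 0.564 without the 2 farthest. Measured as the mean z score of the 10 genes, NE 1 (1.29), brimonidine 1 (1.13) and brimonidine 7 (0.79) were the highest exposed libraries, and brimonidine 4 (-1.17) and NE 4 (-0.97) the lowest. Brimonidine 4 was the lowest of its group for 8 of 10 genes (11.0% of all genes) and brimonidine 1 the highest for 6 (14.2%). High and low libraries were found in both groups.

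**Figure D4:**
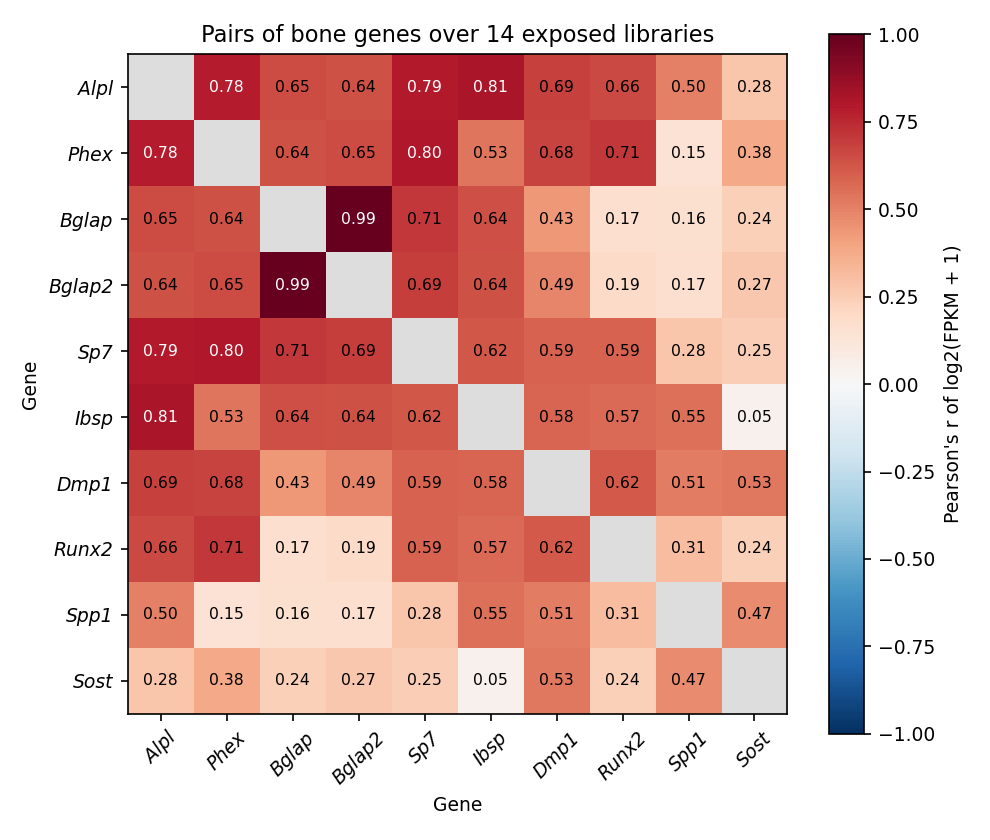
Pearson's r of log2(FPKM + 1) for each pair of the 10 genes over the 14 exposed libraries, with genes ordered by their median r. All 45 pairs were above 0, and Spp1 and Sost had the palest rows.

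The 10 genes also had a higher median spread between mice than other genes. The median coefficient of variation of the 10 genes was 43.6% for the controls, 23.1% for the NE group and 18.8% for the brimonidine group. It was 17.8%, 9.40% and 8.38% for the 6907 genes with a mean level at or above that of Runx2. Runx2 was below these medians in the control and NE groups, and the other 9 genes were above them in all 3 groups. Beside the mean z score of the bone genes over the 14 exposed libraries, the summed level of 7 chondrocyte genes had r = 0.791 that of the matrix and mineralization list r = 0.772 and that of the receptors and signals r = 0.629. The lists of osteoblast transcription factors (r = 0.183) and further osteocyte genes (r = -0.164) did not follow the set in this way. The neutrophil sum had r = -0.183, the osteoclast sum 0.156 (0.323 without Mmp9), the skeletal muscle sum 0.016, the lateral wall sum 0.308 and the number of fragments -0.305. These are descriptions over 14 libraries that share the composition of each dissection, and their part in the correlations was not tested.

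Among the genes outside the set whose levels were most like the mean of the 10, over the same 14 libraries and without a test, were Gja1 (r = 0.896), Fap (0.891), Plod2 (0.886), Wisp1 (0.880), Dlx3 (0.870), Rcn1 (0.864) and Ppic (0.863). Gja1 encodes connexin 43, the gap junction protein that links osteocytes and many other cells. Plod2 hydroxylates collagen lysines, and Dlx3 is a transcription factor that osteoblasts use. Their mean levels were 3.72 (Dlx3) to 26.6 FPKM (Ppic) in the exposed libraries.

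The promoters of Bglap and Ibsp are shown because RUNX2 is known to act on osteocalcin and because both genes moved together here (r = 0.642). They are RefSeq windows of GRCm38.p6, from 250 bases before to 50 after the gene's start, at chr3:88384417-88384716 on the minus strand and chr5:104299037-104299336 on the plus strand. The capitals mark the RUNX motif, TGTGGT or its reverse complement ACCACA.
Bglap promoter: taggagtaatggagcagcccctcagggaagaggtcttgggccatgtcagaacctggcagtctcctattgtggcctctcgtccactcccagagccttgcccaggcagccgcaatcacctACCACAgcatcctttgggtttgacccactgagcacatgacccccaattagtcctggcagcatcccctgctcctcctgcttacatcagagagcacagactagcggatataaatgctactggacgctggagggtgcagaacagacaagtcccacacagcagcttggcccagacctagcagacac
Ibsp promoter: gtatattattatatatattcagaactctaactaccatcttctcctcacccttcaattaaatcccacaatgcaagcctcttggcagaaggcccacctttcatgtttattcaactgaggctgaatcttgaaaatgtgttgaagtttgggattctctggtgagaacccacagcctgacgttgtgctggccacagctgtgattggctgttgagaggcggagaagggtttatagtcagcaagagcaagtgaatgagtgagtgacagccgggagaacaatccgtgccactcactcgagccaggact
The Bglap window held 1 motif, which begins at -132 from the start, and the Ibsp window held 0. Windows were given for 8 of the 10 genes and the motif was found in those of 4, Bglap, Runx2, Spp1 and Dmp1. Some genes had more than 1 window, and by window the motif was in 4 of 11, beside 16.8% of all 32851 promoter windows, so a match of 6 bases is frequent. Alpl, whose level followed that of the set most closely, had no match in either of its windows, which says only that these letters are not in those 300 bases.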

How the data were processed

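Total RNA of 17 mouse cochlear samples was sequenced as stranded mRNA libraries. The deposited table gives FPKM per gene and library, which the authors made on mm10; their processing notes name Trimmomatic, HISAT2, Cufflinks and HTSeq, and the annotation was not given in the sources used here. FPKM divides out gene length and library size, so a tissue that fills a larger share of the RNA lowers the values of all others. Gene positions were identical to GENCODE M21 for 93.9% of 35207 genes. Fragments were recovered from FPKM and exon length: 93.0% to 93.8% of low values per library were whole within 0.01.

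The 10 genes and the gene lists were chosen with earlier results of these data known. Groups were compared with limma 3.58.1 in R 4.3.3 (trend) on log2(FPKM + 1), which understates changes of low genes, over genes with at least 1 FPKM in at least 3 of the libraries compared, with p adjusted by Benjamini-Hochberg over all genes tested. A gene was called where the adjusted p was under 0.05 and the log2 fold change was 1 or more in size. Single genes were also compared by exact two-sided permutation tests, and pairs of genes over the exposed libraries with 100000 resamples. The fit was tested on simulated data. For the comparisons with controls the simulated spread was that of the exposed libraries, so the wider spread of the controls was not covered. All members of the set are named; genes of the 4 other bone lists were named where they passed, or else the highest 3 at most, Fgf23, Pth1r and Vdr being added for their roles after values were seen. The alternatives were another pseudocount, no filter, 3 rescalings, all libraries in 1 model, array weights, the replicate number as a block, and leaving out each library. Voom on recovered fragments and the rescalings without control 2 were added after seeing the data. No protein sequences were used here. A gene among those most like the set is not reported here.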

Additional observations from a re-analysis of the deposited data

Results flagged for a closer look

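NE 1 had the highest Sp7 of the NE group, 22.4 FPKM against 14.3 in the next library, a gap of 0.662 of the group's range. It also had the highest Phex, 16.9 FPKM against 11.9, a gap of 0.596 of the range. Both are past Dixon's 95% critical value of 0.568 for 7 libraries. Among the 20 groups of 7 that were examined, chance alone flags about 1. NE 1 was the highest NE library for 5 of the 10 genes, against 14.9% of all genes, and its mean z score over the set was 1.29. Without NE 1, the log2 difference of brimonidine against NE was 0.12 for Sp7 and 0.09 for Phex.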

How the results depend on the processing

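No gene of the set was called in any of the 3 comparisons under any alternative tried. The direction of the small fold changes did change with the processing, and the cause was not tested. In NE against control, rescaling by the median ratio gave 0.054 for Bglap, 0.028 for Bglap2 and 0.0020 for Alpl, quantile normalization gave -0.22 for Ibsp, -0.028 for Dmp1 and -0.079 for Sost, and array weights gave 0.69 for Bglap, 0.64 for Bglap2, 0.14 for Sp7, 0.16 for Phex and 0.27 for Alpl. In brimonidine against NE, equal totals gave 0.011 for Phex, the median ratio -0.013 for Sp7, quantile normalization -0.0099 for Sp7 and array weights 0.021 for Phex. In brimonidine against control, the median ratio gave 0.072 for Spp1 and 0.0044 for Alpl, quantile normalization gave -0.14 for Ibsp and -0.029 for Sost, and array weights gave 0.35 for Bglap, 0.30 for Bglap2, 0.18 for Sp7, 0.096 for Spp1, 0.18 for Phex and 0.31 for Alpl. These rescalings moved the median of all genes in NE against control from -0.044 to 0.052 (median ratio) and 0.062 (quantile). Without control 2, NE against control gave -0.012 for Spp1 under quantile normalization, and brimonidine against control gave 0.061 (equal totals) and 0.030 (median ratio) for Bglap2 and -0.038 (quantile) for Bglap.

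Leaving out a single library at a time, the fold changes (log2) of NE against control ran from -0.54 to 0.44 for Bglap, -0.54 to 0.41 for Bglap2, -0.29 to 0.11 for Sp7, -0.12 to 0.38 for Ibsp, -0.40 to 0.087 for Spp1, -0.014 to 0.25 for Dmp1, -0.26 to 0.59 for Sost, -0.41 to 0.18 for Phex and -0.32 to 0.24 for Alpl. Values for brimonidine against NE ran from -0.54 to -0.29 for Bglap, -0.54 to -0.28 for Bglap2, -0.061 to 0.12 for Sp7, -0.030 to 0.11 for Ibsp, 0.12 to 0.19 for Spp1, 0.10 to 0.24 for Dmp1, -0.033 to 0.13 for Sost, -0.067 to 0.086 for Phex and -0.037 to 0.069 for Alpl. Values for brimonidine against control ran from -0.97 to 0.0070 for Bglap, -0.96 to -0.011 for Bglap2, -0.29 to 0.11 for Sp7, -0.099 to 0.41 for Ibsp, -0.24 to 0.24 for Spp1, 0.16 to 0.42 for Dmp1, -0.22 to 0.64 for Sost, -0.42 to 0.17 for Phex and -0.30 to 0.26 for Alpl. Runx2 kept its sign in all 3 comparisons, from 0.10 to 0.27 in NE against control, 0.043 to 0.096 in brimonidine against NE and 0.18 to 0.34 in brimonidine against control. The lowest values of Bglap came without control 3 and the highest without control 2 in both comparisons with controls.

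The replicate numbers did not pair the libraries: same-numbered libraries correlated at -0.22 to 0.08 in their deviations. With the replicate block the calls over all genes fell from 918 to 0 in NE against control and from 913 to 236 in brimonidine against control, and Bglap (0.011) and Ibsp (-0.011) changed sign in the former. Voom on recovered fragments called 1251 and 1285 genes there. The comparisons with controls rest on 3 control mice, and counting error was at most 4.37% for a gene of the set.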
